A study of Homo sapiens with 15 samples.

Results

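The comparison described here is that of IGROV-CP20 cells given Amphotericin B and then cisplatin with the same cells given cisplatin alone. It covers the 11113 genes kept by a filter on low counts (edgeR's filterByExpr) out of 47634 gene identifiers, in 6 of the 15 libraries of the study. IGROV-CP20 is a human ovarian carcinoma line that tolerates cisplatin, and the study asked which transcripts change when a drug that makes these cells sensitive to cisplatin is added. The 3 Amphotericin B libraries came from cells kept for 24 h with 10 µM Amphotericin B, to which 50 µM cisplatin was applied in the following 24 h. The 3 cisplatin libraries came from cells exposed to 50 µM cisplatin for 24 h with no drug before it. The other 9 libraries, from untreated cells and from cells given Tranilast or Telmisartan (10 µM each) on the same schedule as Amphotericin B, gave the spread between libraries and a further comparison. All libraries are from 1 cell line, each group has 3 biological replicates by its labels, and in bulk RNA fewer cells of a kind and less RNA per cell cannot be told apart. Cells given Amphotericin B without cisplatin were not analysed here, so a response to the antifungal itself and a response to the combination cannot be told apart.

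Amphotericin B is a polyene antifungal that binds sterols, ergosterol of fungi more tightly than cholesterol, and makes membranes leaky to ions and small molecules. Cisplatin forms platinum crosslinks in DNA, which are met by nucleotide excision repair, recombination and the p53 response. SRF (serum response factor) binds the CArG box in the promoters of immediate early genes and of genes for the actin cytoskeleton, and is active with cofactors such as ELK1 or the myocardin-related factors. FOS, a classical SRF target, pairs with JUN proteins to form the AP-1 transcription factor, and the small MAF proteins MAFF, MAFG and MAFK pair with NRF2 on antioxidant genes such as SRXN1.

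The 3 Amphotericin B libraries held 1872639, 1510620 and 1719939 counts, and the 3 cisplatin libraries 2488037, 2171154 and 2348301. Mitochondrial ribosomal RNA took 12.3% to 14.8% of the counts with Amphotericin B, but 13.7%, 5.61% and 3.41% in cisplatin replicates 1, 2 and 3, and 1.79% to 2.20% in untreated cells. Cisplatin replicate 1 stood apart from the other two, with a chi-square per degree of freedom of 26.4 and 43.1 against them, while the 3 Amphotericin B libraries differed from each other by 3.91 to 5.06. Telmisartan replicate 3, which enters the further comparison, also stood apart from replicates 1 and 2 of its group, at 37.8 and 44.1. Since the mitochondrial share moved with the comparison, results are also given from a fit that has this share as a covariate, and its part in the results was not tested. Of the epithelial markers KRT18 was at 146 to 209 CPM (counts scaled to library size by TMM) with Amphotericin B and 124 to 150.1 CPM with cisplatin, and EPCAM at 11.2 to 19.4 against 20.1 to 24.1 CPM, without overlap. KRT8, KRT19 and CDH1 overlapped between the groups and none of the 5 passed the threshold, while KRT7 and the ovarian markers PAX8, MUC16, WT1 and MSLN had at most 4 counts in any library. The endothelial markers VWF and CDH5 and the T cell marker CD3E had no count. The leukocyte gene PTPRC was at 9.96 to 12.8 CPM with Amphotericin B, 2.45 to 15.1 CPM with cisplatin and 64.5 to 75.4 CPM in untreated cells. CD68 and CD14 had at most 6 counts in any library. Of the fibroblast markers COL1A1 was at 11.2 to 15.6 against 14.6 to 25.8 CPM and COL3A1 at 3.73 to 11.4 against 2.94 to 5.04 CPM. COL1A2, DCN, LUM and PDGFRB had at most 18 counts in any library.

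**Figure D1:**
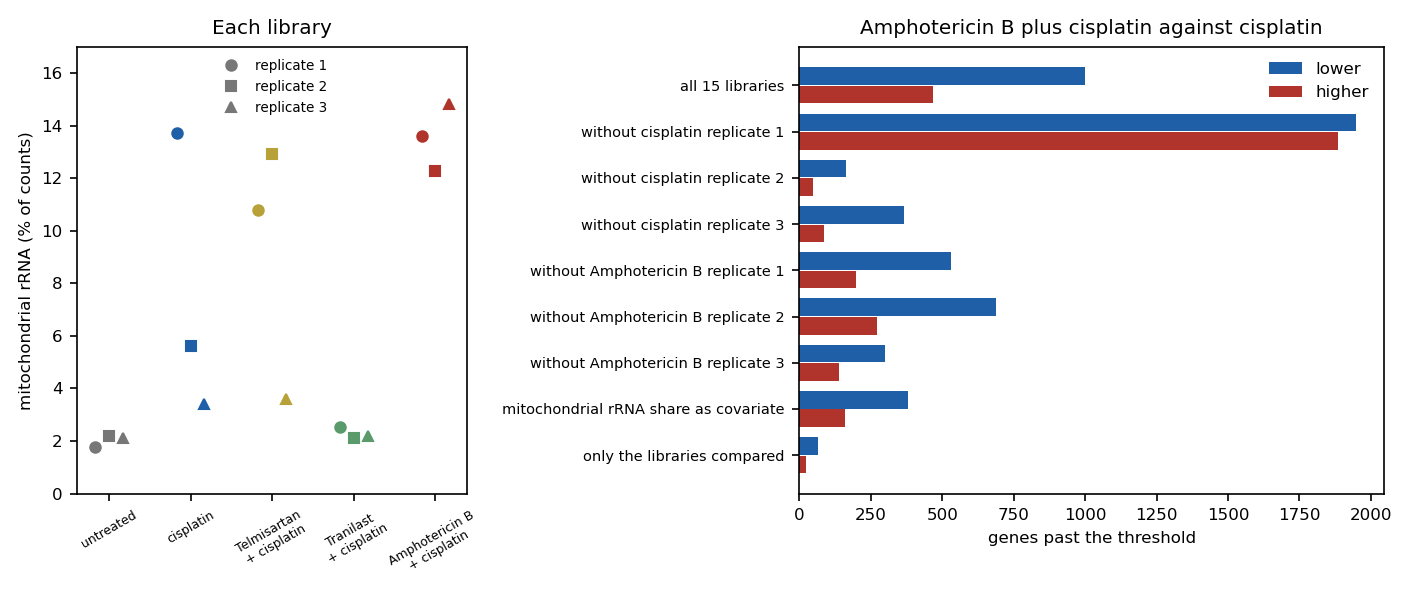
Left, percent of each library's counts on mitochondrial ribosomal RNA (y axis) in the 5 conditions, with a symbol for each replicate. Right, number of genes lower (blue) and higher (red) with Amphotericin B plus cisplatin than with cisplatin (x axis) in the fit of all libraries and in 8 alternatives; the count of lower genes runs from 66 to 1949.

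By the quasi-likelihood test of edgeR, with p-values adjusted by Benjamini and Hochberg's method and a threshold of 0.05, 1001 genes were lower with Amphotericin B plus cisplatin than with cisplatin, which is 9.01% of all genes tested, and 468 were higher, which is 4.21%. At an unadjusted p under 0.05 (edgeR), 2092 genes were lower and 1415 higher, the background for the unadjusted counts of the lists below. The median log2 fold change over all genes was -0.04. The 3 Amphotericin B libraries lay below all 3 cisplatin libraries in 1530 genes (13.8%) and above them in 1208 genes (10.9%). The number of calls depended on single libraries. It was 1949 lower and 1885 higher without cisplatin replicate 1, 163 and 46 without cisplatin replicate 2, and 365 and 85 without cisplatin replicate 3. Without Amphotericin B replicates 1, 2 and 3 in turn it was 529 and 199, 688 and 272, and 298 and 139. With the mitochondrial share as a covariate 380 genes were lower and 158 higher. List counts given below for any of these fits are to be read beside these counts over all genes. Upper quartile scaling moved the split between directions to 727 lower and 603 higher, that is 54.7% of calls lower in place of 68.1%, and limma-voom gave 56.6%.

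Of the 1001 lower genes, 139 passed the threshold in the fit with the covariate and in each fit without 1 cisplatin library, as did 31 of the 468 higher genes. SRXN1, SRF, RBBP6 and TMEM129 were lower under every one of the 20 alternatives computed, and no higher gene passed in all of them. The alternatives include the fit described next, with cisplatin replicate 1 as the only cisplatin library. That fit alone decided the result for higher genes. SLC25A10, MRPL12 and TMEM160 were called higher in 19 of the 20, and STK35, FRMD8, KCTD2, RAB22A and FEN1 were called lower in 19. When cisplatin replicate 1, whose mitochondrial share was like that of the Amphotericin B libraries, was the only cisplatin library used, 5 genes were lower (SRF, RBBP6, TMEM129, CTC1 and SRXN1, each at an adjusted p of 0.0465) and none was higher, while 616 and 591 had an unadjusted p under 0.05. That fit, chosen after the data were seen, takes the spread of the lone library from the other groups. CTC1 did not pass with all libraries (log2 fold change -0.93, adjusted p = 0.115, edgeR). CTC1 and TMEM129 are named because of these counts, after their values were seen.

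SRF was at 49.8, 56.9 and 51.4 CPM in the 3 Amphotericin B libraries and at 137, 293 and 247 CPM in the 3 cisplatin libraries. The groups were far apart, and every Amphotericin B library also lay below the untreated libraries, which were at 94.0, 82.3 and 113 CPM. The log2 fold change of SRF was -2.10 ± 0.24 (SE, n = 3 per group; adjusted p = 0.000306, edgeR). SRXN1, the sulfiredoxin that restores peroxiredoxins after oxidation, was at 113, 132 and 93.2 CPM with Amphotericin B and at 283, 426 and 382 CPM with cisplatin, a log2 fold change of -1.69 ± 0.19 (adjusted p = 0.000306). Untreated cells, at 114, 109 and 139 CPM, overlapped with the Amphotericin B libraries. RBBP6, a RING ubiquitin ligase that binds RB1 and p53 and takes part in 3′ end processing of mRNA, was at 161, 142 and 121 CPM against 326, 549.9 and 396 CPM (log2 fold change -1.58 ± 0.19, adjusted p = 0.0005). TMEM129, a ubiquitin ligase of the endoplasmic reticulum, was at 22.8, 24.9 and 30.6 CPM against 79.5, 74.1 and 59.2 CPM (log2 fold change -1.44 ± 0.22, adjusted p = 0.00356). These 4 genes did not overlap between the groups in any library, and cisplatin replicate 1 was the lowest of the cisplatin libraries for SRF, SRXN1 and RBBP6 but the highest for TMEM129.

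FOS moved the other way. It was at 82.5, 50.5 and 93.2 CPM with Amphotericin B and at 21.3, 14.2 and 7.15 CPM with cisplatin, so that the lowest Amphotericin B library was still above the highest cisplatin library. Its log2 fold change was 2.44 ± 0.58 (adjusted p = 0.0135, edgeR). Untreated cells held 2.04 to 5.10 CPM of FOS and Tranilast plus cisplatin 1.91 to 5.95 CPM, while Telmisartan plus cisplatin gave 49.5, 34.8 and 4.13 CPM in replicates 1, 2 and 3. The Telmisartan library with little FOS is also the one with the low mitochondrial share of 3.61%, against 10.8% and 12.9% in the others. Of the cisplatin libraries, replicate 1, with a share of 13.7%, had the most FOS, 21.3 CPM, below every Amphotericin B library. Whether FOS follows this share was not tested. The FOS call was lost without Amphotericin B replicate 3, cisplatin replicate 2 or cisplatin replicate 3 (adjusted p 0.059 to 0.071, log2 fold changes of 2.29, 2.48 and 2.09), and the log2 fold change was 1.20 with the covariate.

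**Figure D2:**
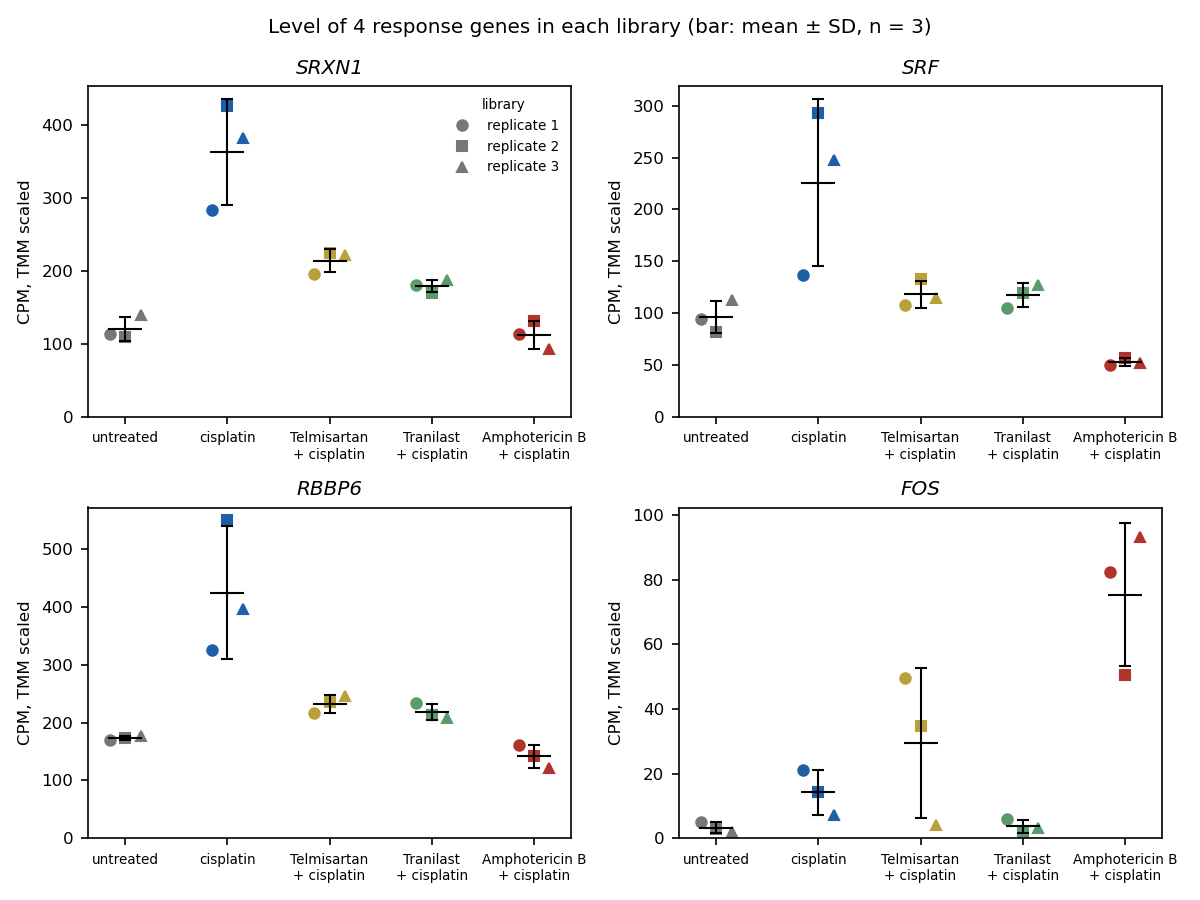
Level of SRXN1, SRF, RBBP6 and FOS (y axis, TMM-scaled CPM) in each library of the 5 conditions (x axis), with the mean and SD of 3 libraries. SRF, SRXN1 and RBBP6 are highest with cisplatin alone and lowest or near the untreated level with Amphotericin B, while FOS lies between 50.5 and 93.2 CPM with Amphotericin B and at 21.3 CPM or less with cisplatin alone.

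The promoters of SRF and RBBP6 are shown because these genes fell together and their 250 bases before the start hold a motif for a factor of the families described here. The sequences are RefSeq's on GRCh38.p14, on the strand of the gene, SRF from chr6:43171019-43171268 and RBBP6 from chr16:24539316-24539565, and capitals mark the matches. The SRF window ends in a pair of CArG boxes, at 30 to 21 and at 10 to 1 bases before the start, which are sites of the kind that SRF itself binds. The RBBP6 window holds a cyclic AMP response element (TGACGTCA) at 94 to 87 bases before the start and, on the other strand, a match at 125 to 117 bases to TGACNNNGC, the core of the antioxidant response element of NRF2 and small MAF proteins.
SRF: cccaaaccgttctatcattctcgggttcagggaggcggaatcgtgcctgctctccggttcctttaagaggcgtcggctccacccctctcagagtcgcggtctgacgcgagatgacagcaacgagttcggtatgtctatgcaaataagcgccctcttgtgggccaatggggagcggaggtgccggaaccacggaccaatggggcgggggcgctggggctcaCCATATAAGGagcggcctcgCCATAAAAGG
RBBP6: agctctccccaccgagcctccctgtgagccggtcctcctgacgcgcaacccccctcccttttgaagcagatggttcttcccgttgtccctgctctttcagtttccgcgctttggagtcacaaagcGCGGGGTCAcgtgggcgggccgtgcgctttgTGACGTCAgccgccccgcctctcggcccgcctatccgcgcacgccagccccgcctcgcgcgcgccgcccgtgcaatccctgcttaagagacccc

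Both strands were searched in 35116 windows of 27305 genes, in which the CArG box was found in 1.16%, TGACGTCA in 1.65%, TGANTCA (the AP-1 site) in 6.57% and TGACNNNGC in 10.9%. The matches in the windows printed above do not overlap with each other. The windows of SRXN1 and FOS held none of these letters, as did a further window at another start of SRF. Bases outside the windows were not searched. The absence of a match therefore does not show that FOS or SRXN1 lacks such a site further from its start. A match is a description of the letters and not a measured binding site.

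Of the 12 tested members of the AP-1 and ATF3 list (of 15), 3 (25%) were lower and 1, FOS, was higher, beside 9.01% and 4.21% of all genes. With the covariate 3 were again lower, MAFK among them, and 1 higher. Equal counts need not be the same genes. The AP-1 list and all lists below were chosen with earlier results of these data known, so their shares are descriptions and not tests. MAFG was at 59.0, 42.5 and 36.5 CPM with Amphotericin B and at 119.8, 133 and 73.9 CPM with cisplatin, a log2 fold change of -1.24 ± 0.25 (adjusted p = 0.00654, edgeR). MAFK was at 35.6, 26.5 and 19.4 CPM against 49.8, 70.6 and 53.6 CPM, with a log2 fold change of -1.09 ± 0.22 (adjusted p = 0.00654). FOSL2, a FOS relative that forms AP-1 dimers of longer life, was at 5.69, 13.6 and 2.24 CPM against 8.40, 46.1 and 48.5 CPM, and here cisplatin replicate 1 overlapped with the Amphotericin B libraries (log2 fold change -2.29 ± 0.55, adjusted p = 0.0137). JUN, the usual partner of FOS, was at 499.9, 249 and 319.8 CPM against 523, 523 and 307 CPM and did not pass (log2 fold change -0.34, adjusted p = 0.425). JUNB (-0.01), FOSB (-0.03) and ATF3 (0.32) did not pass either, so that among the FOS and JUN genes tested FOS alone was higher. MAFK was called with each of the 6 libraries left out in turn. MAFG was lost without cisplatin replicate 2 (log2 fold change -1.04, adjusted p = 0.051), and FOSL2 without Amphotericin B replicate 1 or 3 or without cisplatin replicate 2 or 3 (log2 fold changes of -1.82 to -2.16, adjusted p 0.059 to 0.079).

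Among the other immediate early genes, the EGR, IER and NR4A list, 4 of 15 tested members (26.7%) were lower and 1 (6.67%) was higher. The shares of all genes were 9.01% and 4.21%. With the covariate 3 members were lower and 0 higher (edgeR). NR4A2, an orphan nuclear receptor induced by stress signals, was at 21.3, 33.7 and 26.8 CPM against 53.2, 118 and 103 CPM (log2 fold change -1.75 ± 0.32, adjusted p = 0.00453, edgeR). KLF6, a zinc finger factor that acts as a tumor suppressor, was at 79.6, 76.2 and 60.4 CPM against 153, 190.3 and 121 CPM (log2 fold change -1.10 ± 0.19, adjusted p = 0.00406). Neither gene overlapped between the groups, and both held with each of the 6 libraries left out. NR4A3, with 2.84, 0.00 and 0.745 CPM against 2.24, 18.6 and 22.6 CPM, was near the detection limit in all but cisplatin replicates 2 and 3 (adjusted p = 0.0176), and its call was lost without Amphotericin B replicate 2 or 3 or cisplatin replicate 2 or 3 (adjusted p 0.059 to 0.081). IER5 fell by 0.71 on the log2 scale (adjusted p = 0.0169), a call that was lost without Amphotericin B replicate 3 or cisplatin replicate 2 (log2 fold changes of -0.67 and -0.53, adjusted p 0.071 and 0.12). EGR1, an SRF target like FOS, was at 99.6, 85.8 and 168 CPM against 80.1, 26.0 and 20.7 CPM (log2 fold change 1.50 ± 0.47, adjusted p = 0.0417). Cisplatin replicate 1 came close to the Amphotericin B libraries, untreated cells were at 83.2 to 91.6 CPM, and the EGR1 call was lost in 5 of the 6 fits without a library, that without cisplatin replicate 1 being the exception (adjusted p 0.051 to 0.18 in the others).

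SRF itself was the most changed of the 29 tested members of the SRF and actin target list by adjusted p, and 20 of the 29 had a log2 fold change above 0. The median of 0.28 turned to -0.12 with the covariate and was 0.03 with cisplatin replicate 1 as the only cisplatin library. SRF, ELK1 and TUFT1 were lower (10.3%), and ACTN1 and MYL9 were higher (6.9%), beside 9.01% and 4.21% of all genes. ACTN1 (alpha-actinin, which crosslinks actin filaments) was at 182, 202 and 199.8 CPM against 151, 55.9 and 69.9 CPM, with a log2 fold change of 1.08 ± 0.27 (adjusted p = 0.0173, edgeR). MYL9, a myosin regulatory light chain, was at 705, 508 and 581 CPM against 424, 165 and 121 CPM (log2 fold change 1.34 ± 0.43, adjusted p = 0.045). The actin gene ACTB had 685, 586 and 627 CPM against 599.7, 299 and 212 CPM and did not pass (log2 fold change 0.77, adjusted p = 0.136). ELK1, the cofactor of SRF at immediate early genes, was at 8.53, 5.61 and 11.2 CPM against 10.6, 23.5 and 27.0 CPM, with an overlap at cisplatin replicate 1 (log2 fold change -1.28 ± 0.39, adjusted p = 0.0388). Of these 5 genes only SRF was lower or higher with the covariate, and only SRF held with each library left out. The calls of ELK1 and MYL9 were lost in 5 of 6 such fits, that of TUFT1 in 4 and that of ACTN1 without Amphotericin B replicate 3 or cisplatin replicate 2 or 3 (adjusted p 0.059 to 0.19 in all of these).

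**Figure D3:**
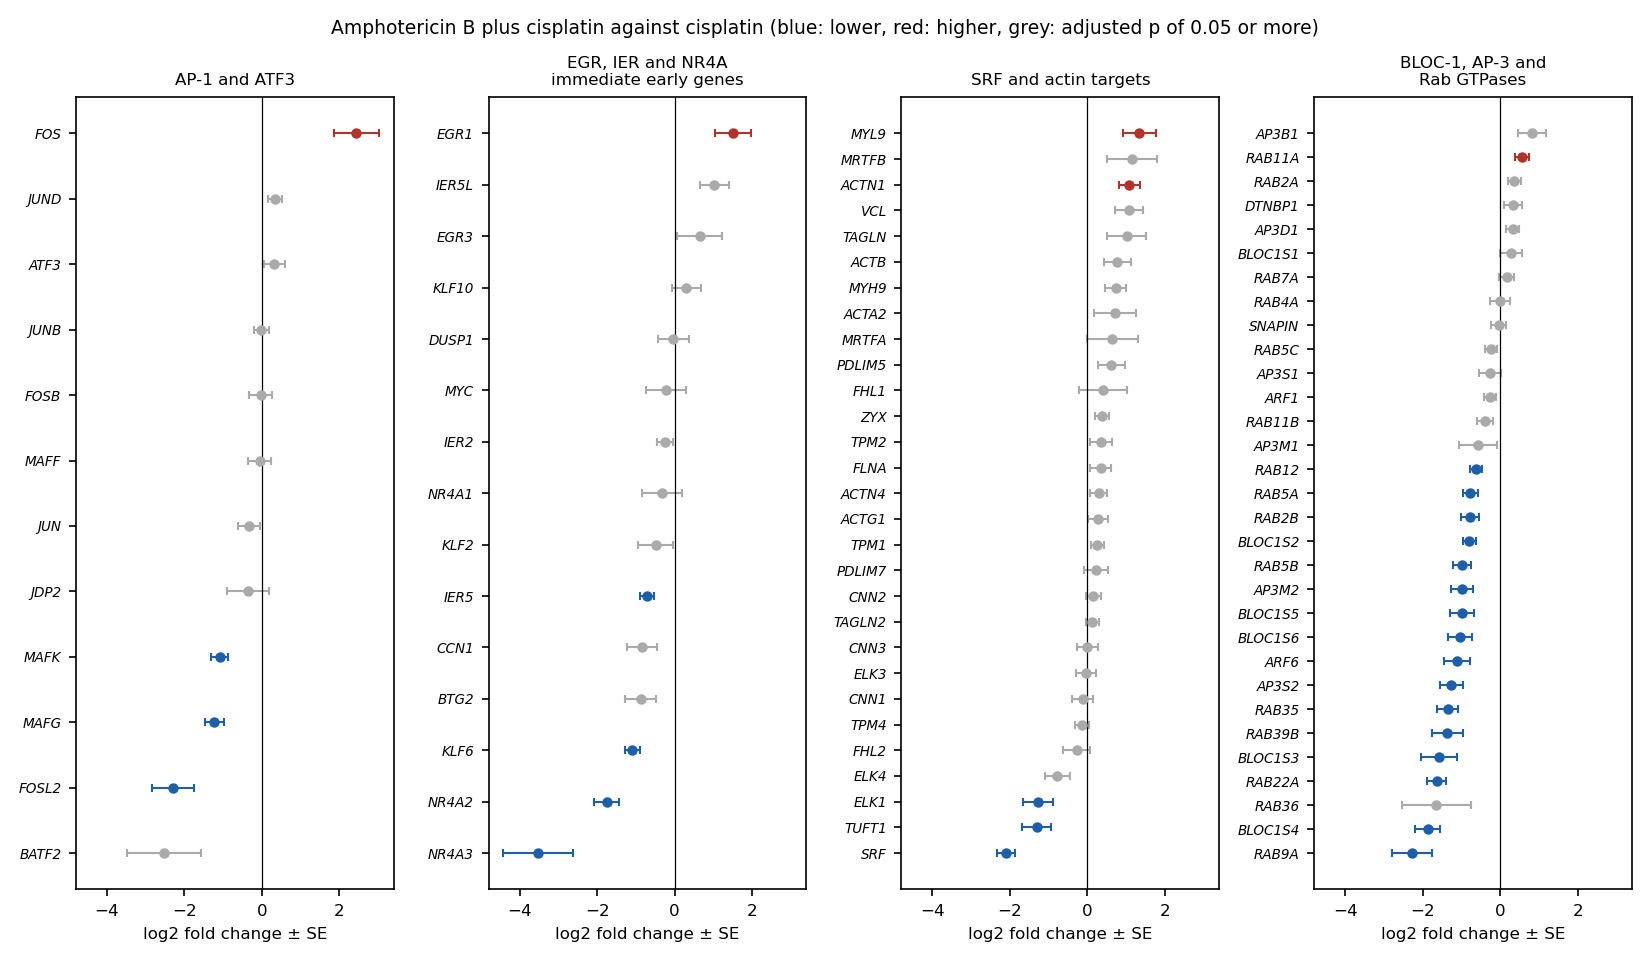
Log2 fold change with SE (x axis) of every tested member of the AP-1, immediate early gene, SRF and actin, and BLOC-1, AP-3 and Rab lists, Amphotericin B plus cisplatin against cisplatin. SRF, FOSL2, NR4A3 and 16 of 31 genes of the last list are blue (lower), and FOS at 2.44, EGR1, MYL9, ACTN1 and RAB11A are red (higher).

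In the NRF2 list 3 of 28 tested members (10.7%) were lower and 4 (14.3%) higher, beside 9.01% and 4.21% of all genes, with a median of -0.02. With the covariate 2 were lower and 0 higher (edgeR). The lower genes were SRXN1, MAFG and NFE2L1, the relative of NRF2 that raises proteasome genes (log2 fold change -0.76 ± 0.19, adjusted p = 0.0176, edgeR). The higher genes were NQO1, a quinone reductase and textbook NRF2 target, GPX4, which reduces lipid peroxides, and the pentose phosphate enzymes PGD and TKT. TKT, transketolase, had the smallest adjusted p of these (log2 fold change 1.20 ± 0.34, adjusted p = 0.0305). HMOX1 (-0.22), GCLM (-0.29) and TXNRD1 (-0.23), other NRF2 targets, for heme breakdown, glutathione synthesis and thioredoxin reduction, did not pass. Whether SRXN1 differed from these targets was not tested. The call of NFE2L1 was lost without Amphotericin B replicate 3 or cisplatin replicate 2 or 3 (adjusted p 0.062 to 0.097), and that of TKT without Amphotericin B replicate 1 or 3 or the same cisplatin libraries (adjusted p 0.083 to 0.15). NQO1, GPX4 and PGD, which are named to complete the count of higher genes, also missed the threshold without cisplatin replicate 2 (adjusted p 0.135 to 0.198) and without replicate 3 (adjusted p 0.145 to 0.191).

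Of 30 genes of copper and platinum transport 17 were tested, with 1 lower and 1 higher (5.88% each, near the 9.01% and 4.21% of all genes). Their median was 0.26, and 0.03 with the covariate. SLC31A1, which encodes the copper importer CTR1 that also carries cisplatin into cells, was at 40.5, 64.2 and 53.7 CPM with Amphotericin B and at 91.8, 103 and 141 CPM with cisplatin, with no overlap (log2 fold change -1.09 ± 0.29, adjusted p = 0.0235, edgeR). TMEM205, a membrane protein linked to cisplatin resistance, was at 144, 124 and 111 CPM against 98.6, 71.1 and 61.2 CPM (log2 fold change 0.72 ± 0.22, adjusted p = 0.0362). ATP7A, a copper exporter, was at 2.13, 2.41 and 5.96 CPM against 1.68, 1.47 and 1.99 CPM and did not pass (adjusted p = 0.352). By quantitative RT-PCR the study reported unaltered CTR1 transcripts with every drug. For Amphotericin B it reported a decrease of ATP7A mRNA and, by Western blot, a very strong loss of ATP7A protein. At 1.47 to 5.96 CPM ATP7A had too few counts here to be set against that decrease. The reason for the difference in SLC31A1 was not tested. The copper carriers ATOX1 (0.78), COX17 (-0.10) and SOD1 (0.26) did not pass, and ATP7B, a copper exporter that can also move platinum, had at most 5 counts in any library and was not tested. The SLC31A1 call was lost without Amphotericin B replicate 1 or 3 or cisplatin replicate 2 or 3 (log2 fold changes of -0.89 to -1.12, adjusted p 0.075 to 0.10), and that of TMEM205 in 5 of the 6 fits without a library (adjusted p 0.059 to 0.15).

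Of 22 genes of cholesterol synthesis 1 was lower (MSMO1, a sterol methyl oxidase, log2 fold change -0.55 ± 0.17) and 1 higher (FDFT1, squalene synthase, 0.61 ± 0.18), with adjusted p of 0.0411 and 0.0344 (edgeR), which is 4.55% each way beside 9.01% and 4.21% of all genes. Of 25 genes of sterol uptake, transport and SREBP control 0 passed edgeR's adjusted threshold, and 2 lower and 4 higher had an unadjusted p under 0.05. Among 22 ion pump and osmotic genes 3 (13.6%) were higher and 0 lower (edgeR; 7 and 3 unadjusted), and 0 were called with the covariate or without cisplatin replicate 2 or 3. NFAT5, the factor of the osmotic response, was at 30.6, 28.9 and 31.3 CPM against 24.1, 13.7 and 5.96 CPM (log2 fold change 1.09 ± 0.35, adjusted p = 0.0465), and the calcium pump ATP2B1 (0.79) was higher too. None of these 4 genes passed with the covariate, and each lost its call in 4 or 5 of the 6 fits without a library (adjusted p 0.062 to 0.19).

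The list of BLOC-1, AP-3 and Rab genes holds genes of membrane traffic through endosomes, lysosomes and related organelles. Of its 31 tested members 16 (51.6%) were lower and 1 was higher, beside 9.01% and 4.21% of all genes, and the median was -0.77. Like the other lists, it was chosen with earlier results of these data known, so this share is a description and not a test. RAB22A, a GTPase of early endosomes, was at 14.2, 14.4 and 16.4 CPM against 33.0, 54.0 and 52.8 CPM (log2 fold change -1.64 ± 0.24, adjusted p = 0.00356, edgeR). BLOC1S4, a BLOC-1 subunit, was at 10.7, 12.8 and 5.96 CPM against 21.8, 42.2 and 42.9 CPM (log2 fold change -1.87 ± 0.32, adjusted p = 0.00404). RAB35 (-1.35) and the BLOC-1 subunit BLOC1S2 (-0.80) were lower too, with no overlap between the groups. RAB11A, of recycling endosomes, was the gene that was higher (0.56 ± 0.18, adjusted p = 0.0427). The lower genes numbered 16 without cisplatin replicate 1, 3 without replicate 2, 5 without replicate 3 and 4 with the covariate, where the median was -0.46. Over all genes those fits gave 1949, 163, 365 and 380 lower genes. RAB22A, BLOC1S4 and RAB35 held with each library left out, BLOC1S2 was lost without cisplatin replicate 2 (adjusted p = 0.052) and RAB11A in 5 of the 6 fits (adjusted p 0.057 to 0.15).

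Of 336 tested zinc finger genes named ZNF, ZKSCAN and the like, 46 (13.7%) were lower and 1 (0.298%) higher, beside 9.01% and 4.21% of all genes, with a median of -0.65, and the other 289 did not pass. ZNF24 was at 99.6, 92.2 and 79.8 CPM against 181, 189 and 158 CPM (log2 fold change -0.96 ± 0.16, adjusted p = 0.00404, edgeR), and ZNF263, ZKSCAN1 and ZNF419 had log2 fold changes of -1.59, -1.52 and -1.85. Of 43 KLHL, KBTBD and BTB genes, whose products bring substrates to cullin ubiquitin ligases, 10 (23.3%) were lower and 0 higher by edgeR (median -0.66; 19 and 1 at an unadjusted p under 0.05). KCTD2 was at 24.2, 21.7 and 18.6 CPM against 42.6, 94.7 and 87.4 CPM (log2 fold change -1.80 ± 0.27, adjusted p = 0.00356), and KLHL21, KBTBD6 and KLHL22 were lower by -1.27, -1.47 and -1.09. These 8 genes held with each of the 6 libraries left out. The lower zinc finger genes numbered 119 without cisplatin replicate 1, 9 without replicate 2, 16 without replicate 3 and 13 with the covariate, where the median was -0.17, and the lower KLHL, KBTBD and BTB genes 20, 4, 6 and 5, with a median of -0.15. The same fits gave 1949, 163, 365 and 380 lower genes over all genes tested.

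Of 28 tested genes of the BCL2 family and death receptors 4 (14.3%) were lower and 0 higher by edgeR (12 and 3 unadjusted), beside 9.01% and 4.21% of all genes, with a median of -0.63 that was -0.12 with the covariate. Of 27 p53 targets 4 (14.8%) were lower and 0 higher by edgeR (9 and 1 unadjusted), and their median of -0.30 turned to 0.13 with the covariate. CASP2, an initiator caspase, was at 34.8, 34.5 and 32.8 CPM against 61.0, 92.7 and 81.4 CPM (log2 fold change -1.20 ± 0.21, adjusted p = 0.00404). PMAIP1, the BH3-only protein NOXA and a p53 target, was at 28.4, 32.9 and 29.1 CPM against 53.8, 70.1 and 68.3 CPM (log2 fold change -1.09 ± 0.21, adjusted p = 0.00537). TRIAP1, a p53-regulated inhibitor of apoptosis, was at 280.2, 265 and 265 CPM against 458, 602 and 429 CPM (log2 fold change -0.88 ± 0.18, adjusted p = 0.00729). BAK1 (-1.32), CASP8 (-1.89), AEN (-1.10) and the death receptor TNFRSF10B (-1.67) were lower as well, while BAX (0.25) and the cell cycle inhibitor CDKN1A (0.31) did not pass. With the covariate 2 p53 targets were lower and 2 higher, and 2 genes of the death list lower and 1 higher. CASP2 and PMAIP1 held with each library left out, TRIAP1 was lost without cisplatin replicate 2 (adjusted p = 0.065), and BAK1, CASP8, AEN and TNFRSF10B were each lost in 2 to 4 of the 6 fits (adjusted p 0.062 to 0.13).

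In the NF-κB list 5 of 20 tested members (25%) were lower, 1 (5.0%) was higher and 14 did not pass, beside 9.01% and 4.21% of all genes. The median was -0.86, and -0.20 with the covariate. NFKBIB, an inhibitor that holds NF-κB in the cytoplasm, was at 103, 100.3 and 76.0 CPM against 158, 236 and 183 CPM (log2 fold change -1.05 ± 0.20, adjusted p = 0.00495, edgeR). RELA, the p65 subunit, was at 80.4, 78.6 and 63.4 CPM against 106, 182 and 147 CPM (log2 fold change -0.97 ± 0.20, adjusted p = 0.00726), and the kinase MAP3K7 had a log2 fold change of -0.94. CXCL1, a chemokine and NF-κB target, was the higher gene, at 18.5, 28.9 and 19.4 CPM against 15.7, 3.92 and 4.77 CPM (log2 fold change 1.50 ± 0.42, adjusted p = 0.027). NFKBIB held with each library left out, RELA was lost without cisplatin replicate 2 (adjusted p = 0.058), and MAP3K7 and CXCL1 were lost in 3 and 4 of the 6 fits (adjusted p 0.060 to 0.13). With the covariate 2 members were lower and 0 higher.

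Among DNA repair genes, the base excision repair list had 4 of 21 members lower and 4 higher (19.0% each, beside 9.01% and 4.21% of all genes), and with the covariate 3 and 1. FEN1, the flap endonuclease of long patch repair and replication, was at 61.2, 57.7 and 82.0 CPM against 103, 310.0 and 250.2 CPM (log2 fold change -1.72 ± 0.29, adjusted p = 0.00404, edgeR), with untreated cells at 23.4 to 28.5 CPM. The nuclease APEX2 (-1.75) and the glycosylase NEIL2 (-1.03) were lower too. PARP1, the sensor of strand breaks, was higher, at 417, 391 and 361 CPM against 264, 219.8 and 256 CPM (log2 fold change 0.66 ± 0.16, adjusted p = 0.0135). Nucleotide excision repair, which removes cisplatin adducts, had 0 of 24 genes past the threshold and 0 with the covariate (edgeR), with 2 lower and 3 higher at an unadjusted p under 0.05. At that unadjusted p (edgeR), 2092 of all 11113 genes were lower and 1415 higher. Mismatch repair had 0 of 7 genes past the threshold (edgeR), with 2 lower and 1 higher unadjusted. In the list of Fanconi, recombination and translesion genes 4 of 46 (8.7%) were lower and 1 (2.17%) higher, near the shares of all genes. FEN1 and APEX2 held with each library left out, NEIL2 was lost without Amphotericin B replicate 3 or cisplatin replicate 2 (adjusted p 0.051 and 0.062), and PARP1 without cisplatin replicate 2 (log2 fold change 0.61, adjusted p = 0.073).

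In the list of G1/S and DNA replication genes 9 of 40 (22.5%) were lower and 1 (2.5%) higher, beside 9.01% and 4.21% of all genes. Lower genes numbered 1 without cisplatin replicate 2, 3 without replicate 3 and 2 with the covariate, where the median moved from -0.17 to -0.05. Over all genes these fits gave 163, 365 and 380 lower genes. CCND1, the cyclin of early G1, was at 59.0, 64.2 and 76.8 CPM against 114, 169 and 189 CPM (log2 fold change -1.24 ± 0.20, adjusted p = 0.00356, edgeR). E2F2, a transcription factor of S phase genes, was at 69.7, 55.3 and 50.7 CPM against 78.4, 299 and 244 CPM (log2 fold change -1.82 ± 0.38, adjusted p = 0.00723), and CCNE1 was lower by -1.19. MCM7, a subunit of the replicative helicase, was higher, at 239, 218 and 221 CPM against 137, 135 and 131 CPM (log2 fold change 0.75 ± 0.16, adjusted p = 0.00808). Of 36 genes of G2/M and mitosis 6 (16.7%) were lower, FBXO5 among them (-1.12), and 1 was higher, the anaphase activator CDC20 (1.04), while with the covariate 1 was lower and 0 higher (edgeR). CCND1 and MCM7 held with each library left out. E2F2 was lost without cisplatin replicate 2 (log2 fold change -1.44, adjusted p = 0.058), CCNE1 and FBXO5 without cisplatin replicate 2 or Amphotericin B replicate 3 (adjusted p 0.057 to 0.11), and CDC20 in 4 fits (adjusted p 0.051 to 0.097).

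Of 36 core autophagy genes 7 (19.4%) were lower and 1 (2.78%) higher, beside 9.01% and 4.21% of all genes. ULK1, the kinase that starts autophagy, was at 12.8, 12.8 and 8.94 CPM against 20.2, 48.1 and 48.5 CPM (log2 fold change -1.76 ± 0.35, adjusted p = 0.00623, edgeR). ATG2A, a lipid transfer protein, was at 32.7, 33.7 and 31.3 CPM against 58.8, 94.7 and 85.0 CPM (log2 fold change -1.29 ± 0.26, adjusted p = 0.00662), and the lysosomal gene regulator TFE3 had a log2 fold change of -0.83. ATG10, a conjugating enzyme, was higher, at 30.6, 30.5 and 23.9 CPM against 15.1, 3.43 and 4.37 CPM (log2 fold change 1.95 ± 0.44, adjusted p = 0.011). ULK1 and ATG2A held with each library left out, and TFE3 and ATG10 did not, with adjusted p of 0.056 to 0.089 without cisplatin replicate 2 or 3 and, for TFE3, without Amphotericin B replicate 3. With the covariate 5 autophagy genes were lower and 1 higher, and without cisplatin replicates 2 and 3 in turn 2 and 4 were lower. Over all genes the covariate fit gave 380 lower and 158 higher, and the other fits gave 163 and 365 lower.

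**Figure D4:**
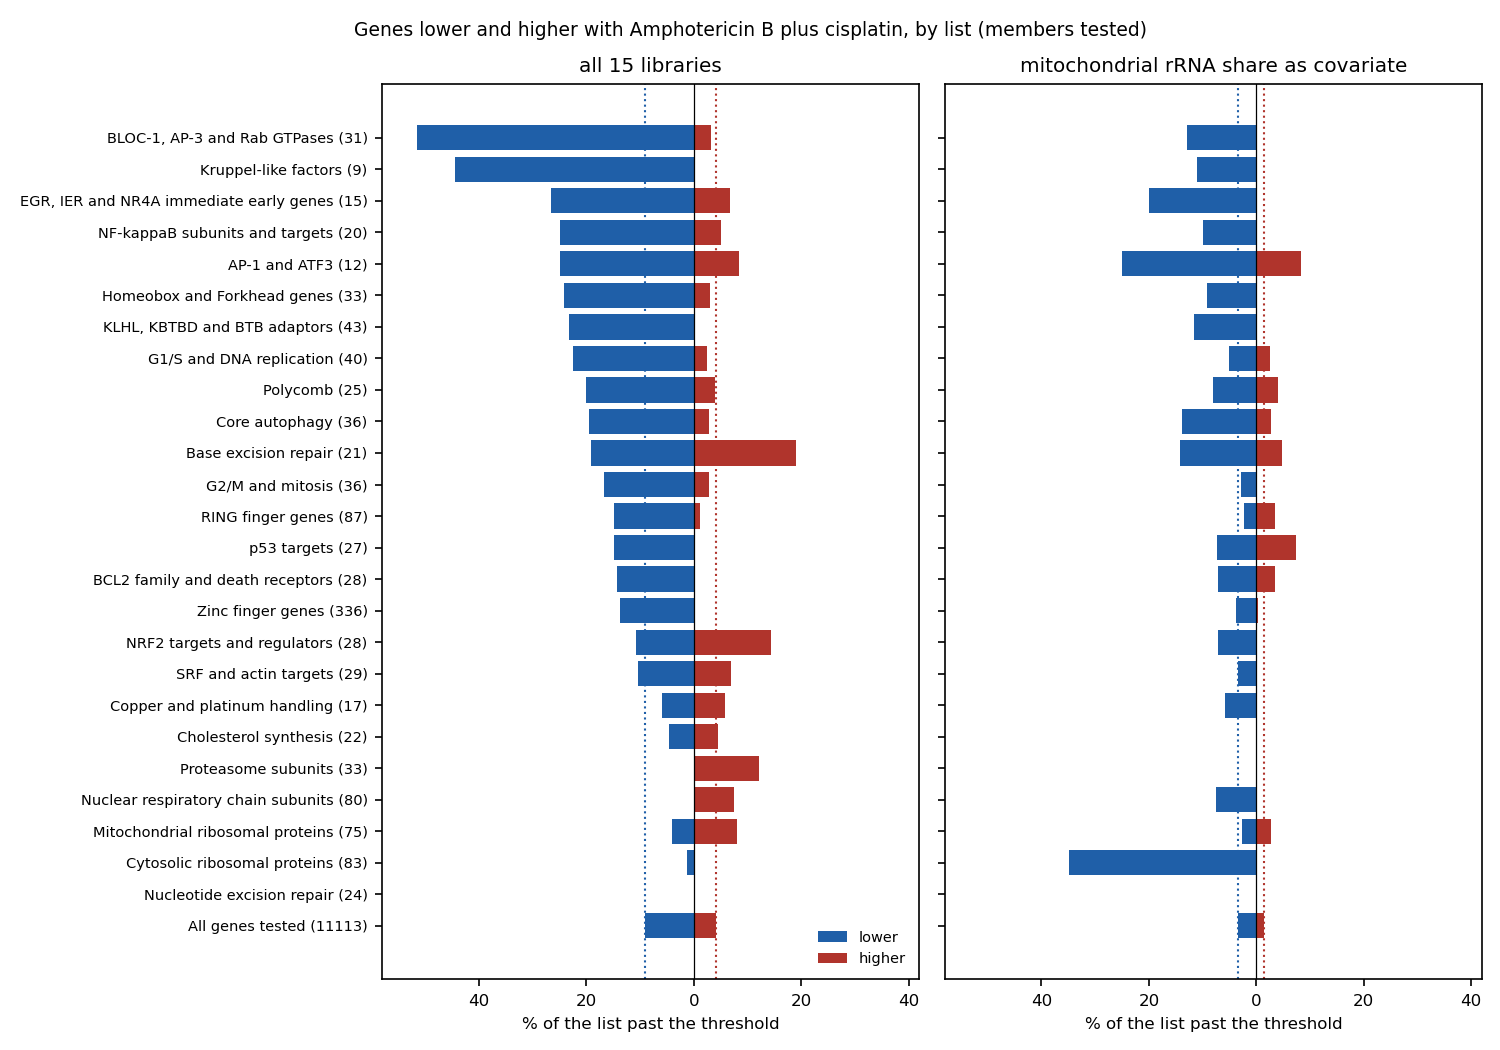
Percent of the tested members of each list that were lower (blue, to the left) and higher (red, to the right) with Amphotericin B plus cisplatin, from all 15 libraries (left panel) and with the mitochondrial ribosomal RNA share as a covariate (right panel). Dotted lines mark all genes tested, 9.01% and 4.21% in the left panel, and numbers in brackets give the members tested. BLOC-1, AP-3 and Rab genes reach 51.6% lower on the left, and of 83 cytosolic ribosomal protein genes 1 is lower on the left and 29 on the right. The lists were chosen with earlier results of these data known.

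Of 80 nuclear genes for respiratory chain subunits 6 (7.5%) were higher and 0 lower (edgeR; 18 and 1 unadjusted), beside 4.21% and 9.01% of all genes, with a median of 0.44. Of 33 proteasome subunits 4 (12.1%) were higher and 0 lower (edgeR; 9 and 0 unadjusted), with a median of 0.35, and with the covariate 0 were called in either direction and the median was -0.04. Of 75 mitochondrial ribosomal proteins 6 (8.0%) were higher and 3 lower, and with the covariate 2 and 2. MRPL12, which also activates the mitochondrial RNA polymerase, was at 172, 162 and 169.9 CPM against 66.1, 68.7 and 82.2 CPM (log2 fold change 1.21 ± 0.19, adjusted p = 0.00356) and held with each library left out. The respiratory chain genes NDUFS7 and CYC1 had log2 fold changes of 1.22 and 0.88, and the proteasome genes PSMD1 and PSMD14 of 0.98 and 0.69, and these 4 calls were lost in 3 or 4 of the 6 fits without a library (adjusted p 0.051 to 0.11). Cytosolic ribosomal protein genes had a median of 0.18, with 1 of 83 lower and 0 higher (edgeR; 1 and 5 unadjusted). This list turned with the covariate, where 29 were lower, 0 were higher and the median was -0.42, as did the respiratory chain list (6 lower, 0 higher, median -0.23). Without cisplatin replicate 1, 22 ribosomal protein genes and 45 respiratory chain genes were higher, beside 1885 of all genes.

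Of 26 tested genes of the mitochondrial genome 3 were lower and 3 higher (11.5% each, beside 9.01% and 4.21% of all genes), and with the covariate 6 and 1. The covariate is built from the counts of ribosomal RNA genes that are themselves in this list. The counts with the covariate are therefore not independent of it. MT-ATP8 was at 962, 973 and 1026 CPM against 3027, 4149.9 and 2370.3 CPM (log2 fold change -1.69 ± 0.33, adjusted p = 0.00597, edgeR) and held with each library left out. MT-ND3 was at 938, 1413 and 1247 CPM against 2049.6, 3679 and 2459 CPM (log2 fold change -1.19 ± 0.25, adjusted p = 0.00845), and was lost without cisplatin replicate 2 (adjusted p = 0.072). The valine tRNA gene MT-TV, which lies between the ribosomal RNA genes, was higher, at 144, 132 and 234 CPM against 84.0, 37.8 and 27.0 CPM (log2 fold change 1.80 ± 0.37, adjusted p = 0.0073), and was lost without cisplatin replicate 2 as well (adjusted p = 0.058). MT-ATP8 overlaps with its neighbour MT-ATP6, and the use of strand in counting is not given in the sources used here, so that reads of overlapping or adjoining mitochondrial genes cannot be told apart.

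In the integrated stress response list 2 of 26 genes (7.69%) were higher and 1 (3.85%) lower, beside 4.21% and 9.01% of all genes. The median of the list, -0.38, turned to 0.14 with the covariate. DDIT3 (CHOP), the stress factor downstream of ATF4, was at 93.9, 105 and 103 CPM against 56.0, 26.5 and 71.9 CPM (log2 fold change 0.96 ± 0.28, adjusted p = 0.0315, edgeR), with untreated cells at 168 to 185 CPM. PPP1R15A (GADD34), which ends the block of translation, was higher (0.62), and CTH, an enzyme of cysteine synthesis, was lower (-2.11). ATF4 itself did not pass (0.56, adjusted p = 0.133). Each of the 3 calls was lost in 4 or 5 of the 6 fits without a library (adjusted p 0.059 to 0.16).

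The 10 protein-coding genes with the largest increases, among called genes without overlap whose log2 CPM averaged 5 or more, included MED27, GADD45B, HBQ1, SLC25A10, ACOT7, TMEM160, NT5C, EGR1 and C7orf50, with log2 fold changes of 1.50 to 1.96. GADD45B, a stress gene that activates p38 and JNK signaling, was at 66.8, 58.5 and 89.4 CPM against 30.2, 19.6 and 15.1 CPM (log2 fold change 1.74 ± 0.41, adjusted p = 0.0125, edgeR). SLC25A10, the dicarboxylate carrier of mitochondria, was at 59.0, 56.9 and 51.4 CPM against 17.9, 19.6 and 16.7 CPM, a difference far above the spread of either group (log2 fold change 1.63 ± 0.26, adjusted p = 0.00356). SLC25A10 and TMEM160 held with each library left out. NT5C was lost without cisplatin replicate 2 (adjusted p = 0.062), MED27 and HBQ1 without cisplatin replicate 2 or 3 (adjusted p 0.054 to 0.083), GADD45B also without Amphotericin B replicate 3 (adjusted p 0.059 to 0.071), and ACOT7 and C7orf50 in 4 fits (adjusted p 0.050 to 0.17).

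The 10 largest decreases by the same rule were STK35, FRMD8, SRF, ZDHHC7, AMMECR1L, ZNF419, E2F2, MIEF1, KCTD2 and RBBP5, with log2 fold changes of -1.78 to -2.30. STK35, a nuclear kinase, was at 14.9, 17.6 and 15.7 CPM against 30.2, 103 and 102 CPM (log2 fold change -2.30 ± 0.42, adjusted p = 0.00463, edgeR). FRMD8, which stabilises the sheddase complex of ADAM17 at the cell surface, was at 22.0, 42.5 and 29.8 CPM against 44.2, 207 and 184 CPM (log2 fold change -2.22 ± 0.41, adjusted p = 0.00479). MIEF1, an adaptor of mitochondrial fission, was at 71.1, 100.3 and 66.3 CPM against 141, 393 and 302 CPM (log2 fold change -1.82 ± 0.30, adjusted p = 0.0036). In all 10 genes cisplatin replicate 1 was the lowest of the cisplatin libraries and the closest to the Amphotericin B libraries. All but E2F2 and RBBP5 held with each library left out, and these were lost without cisplatin replicate 2 (adjusted p 0.058 and 0.062).

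Among 10081 protein-coding genes tested, transcript features of GENCODE 29 were matched for 10076, and the median number of exons was 9 over all of them, 6 in the lower genes and 11 in the higher genes. In 5 equal groups of genes, from the fewest exons to the most, 17.3%, 12.4%, 9.08%, 5.46% and 2.68% were lower, and 2.48%, 3.77%, 3.92%, 4.22% and 6.60% were higher. The median log2 fold change of the outer groups was -0.32 and 0.21, and -0.22 and 0.20 with the covariate. The 3′ UTR was longer in the lower genes, with a median of 1939 bases against 1356 in all and 772 in the higher genes. In 5 equal groups by 3′ UTR length the median log2 fold change ran from 0.22 in the shortest to -0.21 in the group next to the longest, and with the covariate it lay between -0.04 and 0.03 in all 5 groups. These counts are descriptions over genes, which are not replicates.

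**Figure D5:**
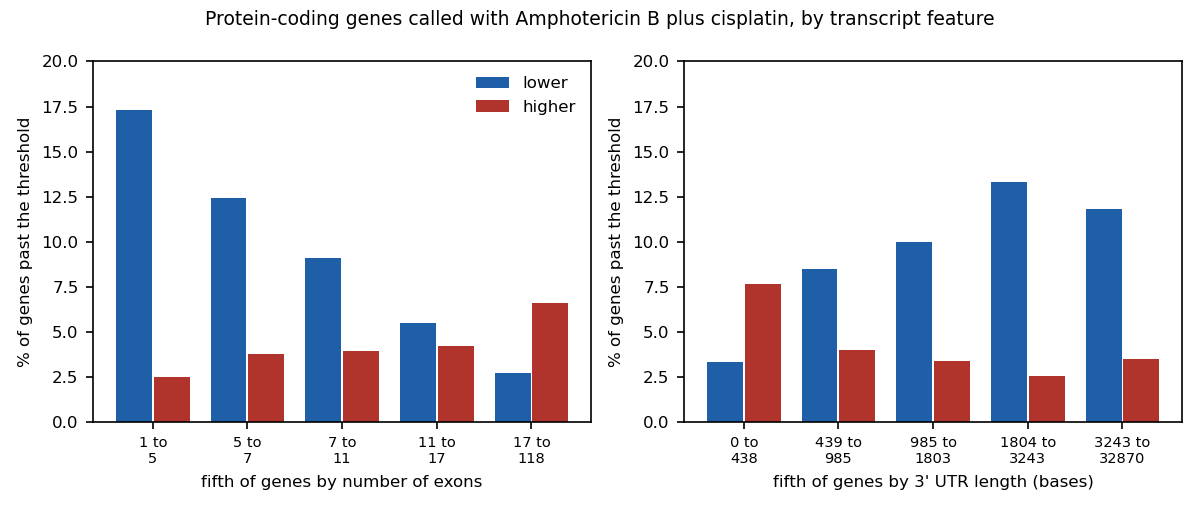
Percent of protein-coding genes lower (blue) and higher (red) with Amphotericin B plus cisplatin (y axis), in 5 equal groups of genes by number of exons (left) and by length of the 3′ UTR in bases (right). The lower share falls from 17.3% to 2.68% with exon number, and the higher share rises from 2.48% to 6.60%.

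Against the mean of the other drug combinations, Tranilast plus cisplatin and Telmisartan plus cisplatin, 1541 genes (13.9%) were lower with Amphotericin B plus cisplatin and 1378 (12.4%) were higher by the same test. SRF, SRXN1 and RBBP6 were lower here too, with log2 fold changes of -1.16, -0.80 and -0.67 (adjusted p = 0.00433, 0.00607 and 0.0109, edgeR), and FOS was higher by 2.91 ± 0.48 (adjusted p = 0.00305). The largest differences by the naming rule were MTRNR2L12 (2.13), GADD45B (2.11), MT-CO1 (1.90), C4orf48 (1.90) and LSM7 (1.84) upward, and DSTYK (-1.85), STK35 (-1.82), BBC3 (-1.80), RAB11FIP5 (-1.77) and MFHAS1 (-1.67) downward. MTRNR2L12 is a near copy of the mitochondrial ribosomal RNA gene, so that its reads may come from that gene. DSTYK, a kinase, was at 29.2, 34.5 and 28.3 CPM with Amphotericin B, at 141, 139 and 141 CPM with Tranilast and at 55.6, 64.6 and 137 CPM with Telmisartan. The Telmisartan libraries with high mitochondrial shares, replicates 1 and 2, were the closer ones for this gene, and a link with that share was not tested.

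By list, 66 of 83 cytosolic ribosomal protein genes and 58 of 80 respiratory chain genes were higher with Amphotericin B than with the other combinations, with medians of 0.90 and 0.90, as were 16 of 26 genes of the mitochondrial genome and 18 of 33 proteasome genes, beside 12.4% of all genes. In the integrated stress response list 17 of 26 were lower and 0 higher (edgeR), beside 13.9% and 12.4% of all genes, with a median of -1.01. CHAC1 and SESN2 are given as examples chosen after their values were seen. CHAC1, which breaks down glutathione, was at 26.3, 39.3 and 12.7 CPM with Amphotericin B and at 144, 178 and 153 CPM with Tranilast, and SESN2, a stress-induced inhibitor of mTORC1, at 88.2, 217 and 80.5 CPM and 544, 662 and 635 CPM. With Telmisartan CHAC1 was at 39.3, 51.4 and 121 CPM and SESN2 at 168, 186 and 512 CPM, replicate 3 being the high one for both. The number of lower stress genes was 5 without Amphotericin B replicate 1 and 5 without replicate 3, and that of higher ribosomal protein genes 37 and 36. Over all genes 540 and 509 were lower in these fits, and 609 and 700 higher. With the covariate 0 genes were lower and 2 higher over the whole table by edgeR (MT-TV and CSKMT, named after their values were seen), against 696 and 535 at an unadjusted p under 0.05. MT-TV lies between the ribosomal RNA genes from which the covariate is built. The mitochondrial share was 12.3% to 14.8% with Amphotericin B, 2.10% to 2.53% with Tranilast and 3.61% to 12.9% with Telmisartan, so that this difference and the difference between the drugs cannot be told apart in these libraries. Calls of RAB11FIP5 and MFHAS1 were lost without Amphotericin B replicate 1 (adjusted p 0.057 and 0.051), and those of RAB11FIP5 and RBBP6 without Amphotericin B replicate 3 (adjusted p 0.066 and 0.068).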

How the data were processed

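The 3′ mRNA libraries (QuantSeq, 100 ng of total RNA, single-end reads of 75 bases) were deposited by the authors as raw counts per gene for each of 15 samples, and the submitters' processing notes name STAR 2.3.0, HTSeq and hg19. The annotation and the use of strand in counting are not given in the sources used here. Gene names and transcript features came from GENCODE release 29, which named 45776 of 47634 identifiers, and no coordinates of it are printed. Doses are those of the study's methods.

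Counts of all 15 libraries were filtered with filterByExpr, scaled by TMM and fitted with edgeR 4.0.16 (R 4.3.3, quasi-likelihood test, Benjamini-Hochberg adjustment over 11113 genes, threshold 0.05), so that all groups share the estimate of the spread. CPM values are TMM-scaled, and the SE of a log2 fold change is its size divided by the root of the F statistic. Totals ran from 1510620 to 3517041 counts, and at this depth 3 counts was taken as the floor. On simulated counts for 10830 genes of the comparison with cisplatin, 50 genes were changed by each amount. Of those changed by a log2 of -1 and 1, 44% and 60% were recovered. Of those changed by -2 and 2, 90% and 100% were recovered, and 11 calls were false. The changed genes were drawn only from those above a minimum mean level, and genes of like level were given the same spread. Whether these rates hold for genes of low level was not tested. Nor was it tested for the measured libraries, where cisplatin replicate 1 and Telmisartan replicate 3 stood apart from the others of their groups.

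Genes were named as the 4 marker genes, the 10 largest changes each way among protein-coding genes past the threshold with no overlap and a mean log2 CPM of at least 5, up to 4 genes per list by adjusted p, and the 5 largest differences each way from the other combinations. Other members are given by value. Some genes that this rule names are not reported here. The members and the 55 gene lists were chosen with earlier results of these data known. Alternatives were other scalings, filters, tools (limma 3.58.1, DESeq2 1.42.0), thinning, a replicate block, a covariate and leaving out each library.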

Additional observations from a re-analysis of the deposited data

How the results depend on the processing

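In the comparison with cisplatin, against 1001 lower and 468 higher genes, the counts were 380 and 158 with the mitochondrial ribosomal RNA share as a covariate, 66 and 23 with only the 6 libraries compared, 241 and 52 at an adjusted p under 0.01, and 5 and 0 with cisplatin replicate 1 as the only cisplatin library (edgeR; 616 and 591 unadjusted), an alternative chosen after seeing the data. Higher genes numbered 755 with DESeq2, 779 with the likelihood ratio test and 242 with library size as the only scaling. Leaving out 1 library gave 163 to 1949 lower and 46 to 1885 higher genes. Against the other combinations, 1541 lower and 1378 higher genes became 0 and 2 with the covariate (edgeR; 696 and 535 unadjusted), 4024 and 552 with library size only, and 329 and 462 at an adjusted p under 0.01, and leaving out 1 library gave 509 to 1853 and 609 to 1562. Lower genes made up 52.8% of those calls, 87.9% with library size only, 41.2% with RLE factors, 41.7% with DESeq2 and 43.8% with upper quartile factors. Library size only moved the median log2 fold change of all genes from -0.04 to -0.25 against cisplatin and from -0.10 to -0.59 against the other combinations. The causes were not tested. With cisplatin replicate 1 as the only cisplatin library, TUFT1 (0.13) and DSTYK (0.039) changed sign. Same-numbered libraries of the groups had correlated deviations of 0.0551, 0.0238 and -0.0815, so the numbers were not taken as pairs, and a replicate block gave 965 lower and 523 higher genes against cisplatin and 1512 and 1405 against the other combinations. Totals of 1510620 to 3517041 counts limit the precision of genes with few counts, and 3 libraries per group limit that of all.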
